A study of Homo sapiens with 2 samples.

Results

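The genes described here are the 82 that encode the proteins of the cytosolic ribosome and carry the standard RPS, RPL, RPLP or RPSA symbols. They were taken from 36601 annotated genes by symbol, with a minimum of 100 unique molecular identifiers (UMIs, tags that count each captured RNA molecule once) over both libraries, and without Y-linked genes and pseudogenes. Without 2 Y-linked genes, which were left out, 84 symbols matched the pattern, and 2 of these, RPL3L and RPL10L, missed the minimum. The members just inside the minimum were RPS10 with 904 UMIs, RPL39L with 914 and RPL26L1 with 1683, and the genes just outside it were RPL3L with 4 UMIs and RPL10L with 0. The set holds 31 proteins of the small (40S) subunit, 43 of the large (60S) subunit, the 3 stalk proteins RPLP0, RPLP1 and RPLP2, and 5 paralog genes, which are second copies of a standard gene with a related protein (RPL7L1, RPL22L1, RPL26L1, RPL39L and RPS27L). FAU, which encodes a ribosomal protein fused to a ubiquitin-like domain, has another kind of symbol and is no member, nor is RPL36AL.

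The study profiled human umbilical vein endothelial cells (HUVECs), cultured cells from the inner lining of the umbilical vein, by droplet single-cell RNA sequencing from the 5′ end of transcripts (10x Genomics, version 2 chemistry). HUVECs were grown under flow in EGM-2 medium for about 48 hours to a confluent layer in microfluidic channels of 50 µm, after which red blood cells flowed over them for 4 hours. All of these were healthy in the hRBC library. In the 5% pdRBC library 5% of the flowing cells had lost water through nystatin and high-sucrose washing, which brought their hemoglobin concentration (MCHC) to between 40 and 42 g/dL, as a stand-in for stiff sickle red cells, and the rest were healthy. Each condition is 1 library, red cells were lysed with ACK buffer before capture, and the number of HUVEC donors or devices behind a library is not given in the sources used here.

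With 1 library per condition there is no replicate error and no test, and every interval below covers counting error only. The hRBC library held 3858 barcodes and 14321939 UMIs, and the 5% pdRBC library 1635 barcodes and 16158876 UMIs. After a filter at 1000 UMIs, 500 genes and 20% mitochondrial UMIs, 2555 and 1601 cells remained, with a median of 2175 UMIs in hRBC and 9566 in 5% pdRBC. This gap in depth touches every comparison between the libraries, so values are also given within classes of depth. The libraries shared 9 barcodes, of which 6 were kept cells in both. All 10 endothelial markers were detected in both libraries (summed level 4029 CPM, or UMIs per 1000000 UMIs of the library, in hRBC and 3811 CPM in 5% pdRBC), whereas 10 erythroid genes gave 15 and 4 UMIs in all and HBA1 and HBA2 were at 0 in both.

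A ribosome joins a small subunit, which reads the mRNA, to a large subunit, which makes the peptide bond, and most of its proteins are needed in equal numbers. The mRNAs of nearly all these proteins begin with a 5′ terminal oligopyrimidine (TOP) tract, a stretch of C and T bases directly at the start of transcription, through which the mTOR kinase and the RNA-binding protein LARP1 control their translation as a group. They are among the most abundant and most stable mRNAs of dividing cells, endothelial cells included, and their share of a cell's transcripts is often used to describe growth state and cell quality.

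The sequences around the transcription start are shown because they carry the feature that members share and that the symbol rule did not use. RefSeq starts (GRCh38.p14) were matched for 66 of the 82 members. Each line gives 15 bases before and 15 bases from the start on the gene's own strand, 5′ to 3′, and capitals mark the longest run of C and T that touches the 5 bases on either side of the start. The first 7 genes hold a run of 7 or more bases, the next 4 do not, and EEF1A1, a translation elongation factor that is no member, is shown beside them.
RPS27 (chr1:153990747-153990776, plus strand): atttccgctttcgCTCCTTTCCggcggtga
RPL37A (chr2:216498829-216498858, plus strand): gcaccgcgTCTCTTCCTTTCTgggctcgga
RPL38 (chr17:74203663-74203692, plus strand): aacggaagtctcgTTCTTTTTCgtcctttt
RPL39 (chrX:119791616-119791645, minus strand): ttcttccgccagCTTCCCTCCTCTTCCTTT
RPS6 (chr9:19380222-19380251, minus strand): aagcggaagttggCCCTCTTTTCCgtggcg
RPLP1 (chr15:69452803-69452832, plus strand): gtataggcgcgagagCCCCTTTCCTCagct
RPL22L1 (chr3:170870181-170870210, minus strand): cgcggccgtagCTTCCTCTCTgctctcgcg
RPS29 (chr14:49598696-49598725, minus strand): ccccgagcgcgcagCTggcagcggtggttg
RPS27L (chr15:63157463-63157492, minus strand): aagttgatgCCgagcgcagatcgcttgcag
RPL26L1 (chr5:172958714-172958743, plus strand): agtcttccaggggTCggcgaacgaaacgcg
RPL7L1 (chr6:42879601-42879630, plus strand): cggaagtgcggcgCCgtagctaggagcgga
EEF1A1 (chr6:73521018-73521047, minus strand): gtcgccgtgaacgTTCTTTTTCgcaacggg

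A run of at least 7 C or T bases at the start was found in 48 of the 66 matched members (72.7%), against 15.1% of 27305 promoters in the same table and 14.9% of the 8418 other measured genes. The run had a median length of 10.5 bases in the members and of 3 bases in all promoters. Among the 62 matched members that are not paralogs 47 held one, and among the 4 matched paralogs RPL22L1 alone did. Such a match describes the letters around an annotated start. For RPS29, whose window holds none, it says only that these letters are not in this window. The 48 members with a run had a median log2 fold between the libraries of -0.14 and the 18 without had -0.01, and the ranges overlapped, from -0.55 to 0.18 and from -0.72 to 0.16.

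The members gave a large part of all RNA molecules captured. In the hRBC library 2241684 of 13335148 UMIs in kept cells came from them, 16.81% (95% exact binomial interval 16.79% to 16.83%). In the 5% pdRBC library 2586083 of 16127985 did, 16.04% (16.02% to 16.05%). The share was thus 1.05-fold lower with 5% pdRBC, a log2 difference of -0.07, a gap outside counting error. Its direction depended on how cells were weighted: the mean share over cells, which counts a shallow cell like a deep one, was 15.1% in hRBC and 15.5% in 5% pdRBC. Fewer transcripts of these genes and more of others cannot be told apart in a share.

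The 40S proteins took 7.20% of UMIs in hRBC and 6.79% with 5% pdRBC, the 60S proteins 7.97% and 7.71%, the stalk proteins 1.54% and 1.45%, and the paralogs 0.0968% and 0.0871%. The balance between the subunits stayed close, since 40S proteins made 43.3% of the members' UMIs in hRBC and 42.7% in 5% pdRBC. Of the 50 genes with the highest levels, 29 in hRBC and 28 in 5% pdRBC were members. At 1000 CPM or more stood 62 members among 127 genes in hRBC and 58 among 126 genes in 5% pdRBC.

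Levels differed widely within the set, although the ribosome uses most of these proteins once. A UMI counts a captured molecule once, so CPM was not divided by length here. Capture at the 5′ end, recovery of transcripts of different length and read assignment can still differ between genes, and this was not tested. RPLP1, a protein of the stalk that recruits elongation factors, was the most abundant at 9071 CPM in hRBC and 8341 CPM in 5% pdRBC (chromosome 15, 69452784 to 69456194, GRCh38, GENCODE 29). RPS12 followed at 6426 and 6052 CPM, RPL13 at 5212 and 5709 CPM, RPL10 at 5143 and 5485 CPM, and RPS19, a 40S protein mutated in Diamond-Blackfan anemia, at 5435 and 4856 CPM. The 10 most abundant members held 30.7% of the set's UMIs in hRBC and 31.5% in 5% pdRBC.

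At the low end stood RPL39L at 31.6 and 27.5 CPM, RPS10 at 31.8 and 27.8 CPM, RPL26L1 at 61.3 and 49.5 CPM, RPL7L1 at 65.2 and 64.4 CPM, and RPL22L1 at 89.4 and 101 CPM in hRBC and 5% pdRBC. Of these 5, RPS10 is the only standard subunit protein. It overlaps the readthrough gene RPS10-NUDT3 on the same strand, and that gene had 96.8 and 94.2 CPM, and how reads that fit both genes were assigned is not known from these files. In all 15 members overlap another annotated gene on their strand. The reference annotation lists 1145 pseudogenes of these genes in 77 families and the files list none, so reads shared with processed copies, as for RPL21 with 66 and RPL23A with 91 annotated pseudogenes, were counted by rules not given in the sources used here.

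**Figure D1:**
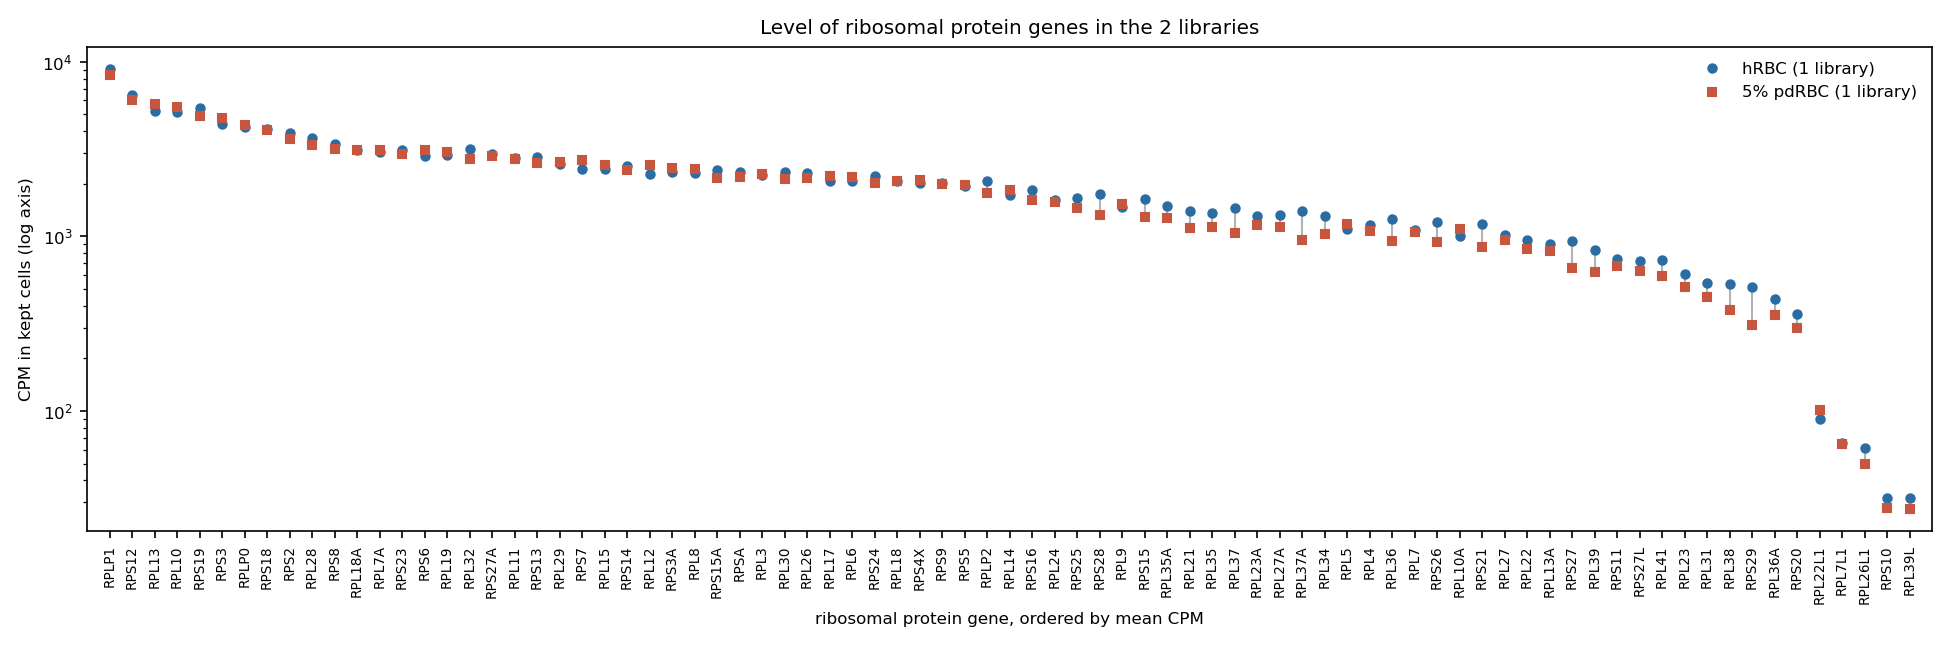
Level of ribosomal protein genes in the kept cells of the hRBC library (circles) and the 5% pdRBC library (squares), in CPM on a log axis, ordered by the mean of both. RPLP1 leads at 9071 and 8341 CPM, the levels fall off gradually to RPS20 at 359 and 299.9 CPM, and RPS10 and 4 paralogs follow after a gap at 101 CPM or less.

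Between the libraries, a set of small ribosomal proteins was lower with 5% pdRBC and no member was called higher. A gene was called when its CPM differed by at least 1.2-fold and the exact interval of the UMI split left out 1, over 11043 genes with 100 or more UMIs in kept cells, a minimum that all 82 members passed. By that rule 19 members were lower, where 5.06% of all measured genes were, and 0 were higher, where 7.28% were. The call at 1.5-fold held for RPS29 alone among the members, where 1.09% of all measured genes were lower and 1.55% higher. Counting error alone was exceeded far more often: 52 members had an interval below 1 and 21 above 1, against 12.2% and 15.4% of all measured genes. The median log2 fold was -0.12 over the members and 0.02 over all measured genes.

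RPS29, a zinc-binding protein of the 40S head (chromosome 14, 49570984 to 49599164), had 511 CPM in hRBC and 310 CPM in 5% pdRBC. It was 1.65-fold lower (interval 1.59 to 1.71), the largest difference among the members. RPL37A, a zinc-binding 60S protein (chromosome 2, 216498189 to 216579180), went from 1388 to 949 CPM, 1.46-fold lower (1.43 to 1.49). RPS27, the zinc-finger protein metallopanstimulin (chromosome 1, 153990755 to 153992155), went from 945 to 660 CPM, 1.43-fold lower (1.40 to 1.47). These intervals are narrow because each gene had at least 4992 UMIs per library, and they say nothing of how 2 cultures treated alike would differ.

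RPL38, a 60S protein known for selective translation of Hox mRNAs (chromosome 17, 74203582 to 74210655), had 532 CPM in hRBC and 376 CPM in 5% pdRBC. RPL37 had 1451 and 1048 CPM, RPS21 1170 and 872 CPM, RPL36 1259 and 941 CPM, and RPL39, which lines the peptide exit tunnel, 832 and 624 CPM. Their log2 folds lay between -0.50 and -0.41. The other called members included RPS28, RPS26, RPS15, RPL34, RPL21, RPL26L1, RPL41, RPL36A, RPL31 and RPL35, named here because of their call, with log2 folds from -0.40 for RPS26 to -0.27 for RPL35. By subunit, 7 of 31 40S members, 11 of 43 60S members, 0 of 3 stalk members and 1 of 5 paralogs were lower.

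At the other end, RPL22L1 had the highest fold, 1.13 (1.05 to 1.22), at 89.4 CPM in hRBC and 101 CPM in 5% pdRBC. RPS7, a 40S protein that binds MDM2, had 2423 and 2744 CPM, RPL12 of the stalk base 2284 and 2544 CPM, and RPL10A 997 and 1105 CPM. RPL13, RPS6, RPL5 and RPS3 had log2 folds of 0.13, 0.11, 0.11 and 0.10. These 8 differences were all under 1.2-fold. RPS6, the substrate of S6 kinase, stood at 2889 and 3122 CPM, and RPL5 and RPL11, which together with 5S rRNA bind MDM2, at 1097 and 1183 CPM and at 2791 and 2774 CPM. RPSA, the laminin receptor homolog, had 2342 and 2179 CPM, and RPS27A, made as a fusion to ubiquitin, 2962 and 2884 CPM.

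Most lower members shared a property that the calls did not use: they encode short proteins, although not every short member was lower. This was noticed after the folds were known and is a description. Coding lengths were taken from GENCODE 29 without the stop codon. The 19 lower members had a median coding length of 315 nt (75 to 480 nt), and the 63 others a median of 495 nt (153 to 1281 nt). In the 11 members under 300 nt the median log2 fold was -0.42 and 9 were lower, where 22.1% of other measured genes were. The remaining 2 members in that class were the paralogs RPL39L and RPS27L, each at -0.20.

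In the 29 members from 300 to under 450 nt the median log2 fold was -0.20 and 9 were lower, and in the 19 from 450 to under 600 nt it was -0.02 and RPL21 alone was lower. In the 11 from 600 to under 750 nt the median was 0.09 and in the 12 of 750 nt or more 0.04, with 0 lower in both classes. Of other measured genes, 8.02%, 4.70%, 5.20% and 4.11% were lower in these classes, from 300 nt upward. From 450 nt on, the counts of lower members were thus near the share of other genes. Across the 82 genes Spearman's correlation of log2 fold with coding length was 0.77, and 0.81 over the 77 members that are not paralogs. Genes within 1 pair of libraries are not independent replicates, so these values are given without a p.

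Over all kept cells, other genes under 300 nt of coding length showed the same sign as the members with a smaller median. From 450 to under 600 nt the signs differed, with medians of -0.02 in the members and 0.01 in other genes. Of 217 other measured genes under 300 nt of coding length, 22.1% were lower and 3.23% higher, with a median log2 fold of -0.06, against 4.11% lower and 7.47% higher, with a median of 0.02, among 8223 genes of 750 nt or more. Where the whole transcript was under 500 nt, the 20 other genes had a median of -0.36 with 14 lower, and the 5 members -0.41 with 5 lower. Over all 10305 other genes with a length the correlation with coding length was 0.10. RPL36AL, a near copy of RPL36A outside the symbol pattern, had 428 and 310 CPM, a log2 fold of -0.47. A single principal transcript per gene gave these lengths, the longest among those of equal coding length. Its length was 7686 nt for RPL37 and 3647 nt for RPL37A, and which transcripts the cells held was not measured. With that choice the correlation of log2 fold with whole transcript length was 0.22 over the 82 members, against 0.77 with coding length. Members with transcripts from 500 to under 750 nt had a median of -0.13 with 5 of 20 lower. Other measured genes of that class had -0.10 with 18.4% lower. Members of 2000 nt or more had -0.11 with 2 of 21 lower, RPL37 and RPL37A. Other measured genes of that class had 0.03 with 3.67% lower. The part of transcript length in the lower level of the short members was not tested.

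**Figure D2:**
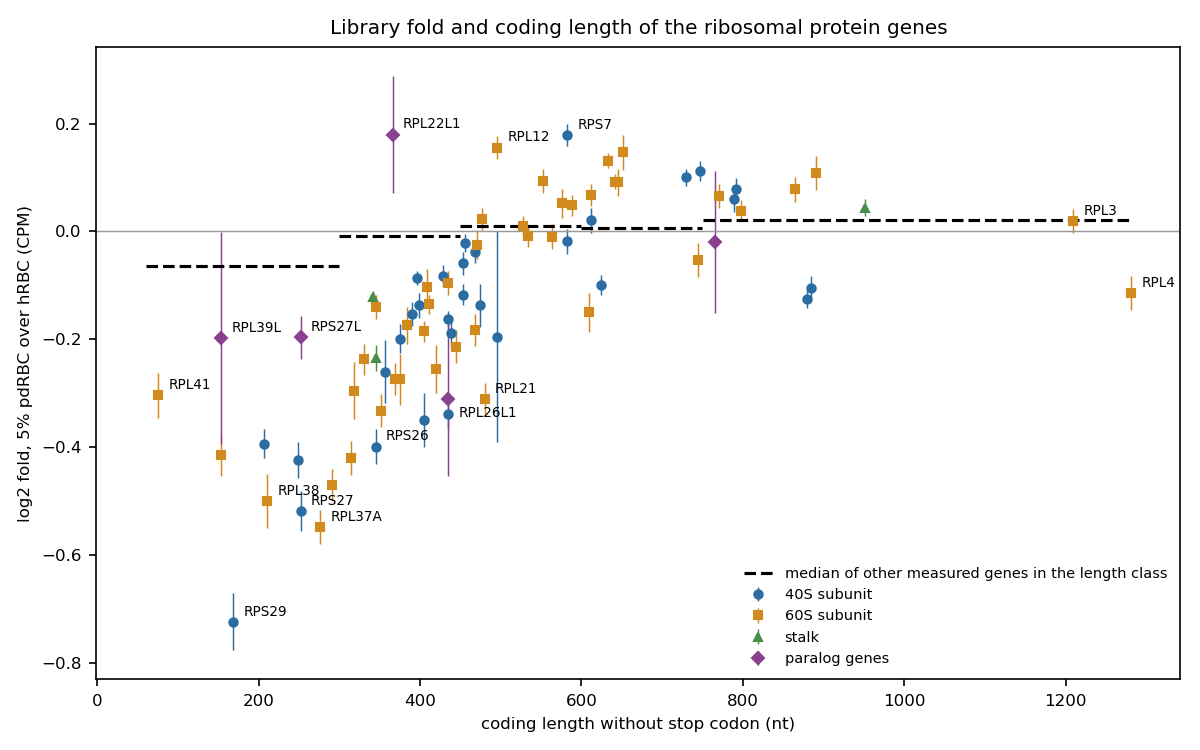
Log2 fold of CPM, 5% pdRBC over hRBC, of each ribosomal protein gene against its coding length in nt, with 95% counting intervals, by subunit class. Dashed lines give the median of the other measured genes in 5 length classes. Members under 300 nt lie between -0.72 and -0.20, and those of 600 nt or more between -0.15 and 0.15.

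The shortest members were also lowest within classes of depth, although the libraries were not matched inside a class. The class of 1000 to under 2000 UMIs was left out here, with 1180 cells of hRBC and only 44 of 5% pdRBC. In it the 82 members together were lower, at 13.95% of UMIs in hRBC and 7.11% in 5% pdRBC. At 2000 to under 5000 UMIs the median cell had 2647.5 UMIs in hRBC and 3443 in 5% pdRBC. In cells of 2000 to under 5000, 5000 to under 10000, 10000 to under 20000 and 20000 or more UMIs, the members under 300 nt had median log2 folds of -0.49, -0.48, -0.54 and -0.49. Those from 600 to under 750 nt had 0.03, 0.13, 0.00 and 0.07 in the same classes, and those of 750 nt or more -0.15, 0.09, -0.01 and 0.01. In the first of these classes the order by length thus broke at the long end, where 11 of 12 members of 750 nt or more were below 0. Other measured genes under 300 nt had medians of -0.33, -0.06, -0.07 and -0.06 in the same order of classes. Those from 600 to under 750 nt had -0.20, 0.01, 0.03 and 0.05. All 19 lower members had a log2 fold under 0 in each of the 4 classes of depth. These classes are parts of the cells in which the calls were made, so this follows in part from the selection. Restricting both libraries to cells of 5000 or more UMIs gave 24 lower members, where 4.41% of measured genes were lower. Matching the libraries on depth gave 23, where 7.12% were. Thinning each cell to 2000 UMIs gave fewer, 15, where 6.39% were. Weighting every cell equally gave 12, where 11.8% were.

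By cell cluster, 5 clusters had at least 50 cells in both libraries. In clusters 0, 3, 5 and 6 the median for members under 300 nt was -0.45, -0.39, -0.48 and -0.49, and for those from 600 to under 750 nt 0.02, 0.15, 0.15 and -0.22. In cluster 6 the long members were thus low too, with 11 of 11 from 600 to under 750 nt below 0 and a median of -0.15 at 750 nt or more. In cluster 2, whose cells had a median of 1525 UMIs in hRBC and 5974 in 5% pdRBC, it was -0.08, and the members from 600 to under 750 nt had 0.46. There 15 of the 82 members had a log2 fold under 0. Other measured genes under 300 nt had medians of -0.03, -0.07, -0.11 and -0.03 in clusters 0, 3, 5 and 6, and 0.06 in cluster 2. Of the 19 lower members, 11 had a log2 fold under 0 in all 5 clusters, RPS27, RPL37A, RPL37 and RPL26L1 among them. The clusters too are parts of the cells in which the calls were made. RPS29 had 535, 503, 428, 523 and 552 CPM in clusters 0, 2, 3, 5 and 6 of hRBC, and 365, 398, 237, 334 and 307 CPM in the same clusters of 5% pdRBC. The 5 values of 5% pdRBC all lay under the 5 of hRBC.

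Within each library the share of UMIs from the members was higher in deep than in shallow cells, and the size of the difference depended on where the cells were divided. In hRBC the share was 13.95% (13.89% to 14.00%) in the 1180 cells of 1000 to under 2000 UMIs, 14.6% in 606 cells of 2000 to under 5000, 17.0% in 231 cells of 5000 to under 10000, 17.6% in 479 cells of 10000 to under 20000 and 18.8% in 59 cells of 20000 or more. The 1299 hRBC barcodes of 500 to under 1000 UMIs, which the filter removed, stood at 13.6%. Deep cells, here those of 10000 or more UMIs, thus had a share of 17.8%, which is 0.35 higher on the log2 scale than in the cells of 1000 to under 2000 UMIs.

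In 5% pdRBC the shallow end was thinly filled and low. Its 44 cells of 1000 to under 2000 UMIs had a share of 7.11% (6.92% to 7.31%), its 187 cells of 2000 to under 5000 UMIs 13.3%, its 644 cells of 5000 to under 10000 UMIs 16.4%, its 664 cells of 10000 to under 20000 UMIs 15.8% and its 62 cells of 20000 or more 17.7%. From the third of these classes to the fourth the step was downward here, unlike in hRBC. Deep against shallow cells differed by 1.18 on the log2 scale, a value that rests on these 44 cells. With cells divided at 5000 UMIs the difference was 0.30 in hRBC and 0.35 in 5% pdRBC. In 38 of the 44 shallow cells under 10% of UMIs came from the members, as in 84 of the 187 cells of 2000 to under 5000 UMIs, and in hRBC in 70 of 1180 and 33 of 606 cells.

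Mitochondrial UMIs and nuclear retained RNA moved with this gradient. Mitochondrial genes gave 5.12% of UMIs in the 44 shallow cells of 5% pdRBC and 1.77% in its deep cells, against 2.60% and 1.76% in hRBC. MALAT1, NEAT1 and KCNQ1OT1 together gave 2.74% and 0.883% in 5% pdRBC and 1.21% and 0.849% in hRBC. Of the 44 cells, 25 were in clusters of under 100 cells over both libraries, 11 of them in cluster 7. Without those clusters the difference was 0.94 in 5% pdRBC, from 19 shallow cells at 8.39%, and 0.32 in hRBC. With at most 10% mitochondrial UMIs it was 1.11 in 5% pdRBC. The part of nuclear retained RNA in it was not tested. Within every class of depth from 1000 UMIs on, the share was lower in 5% pdRBC than in hRBC.

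**Figure D3:**
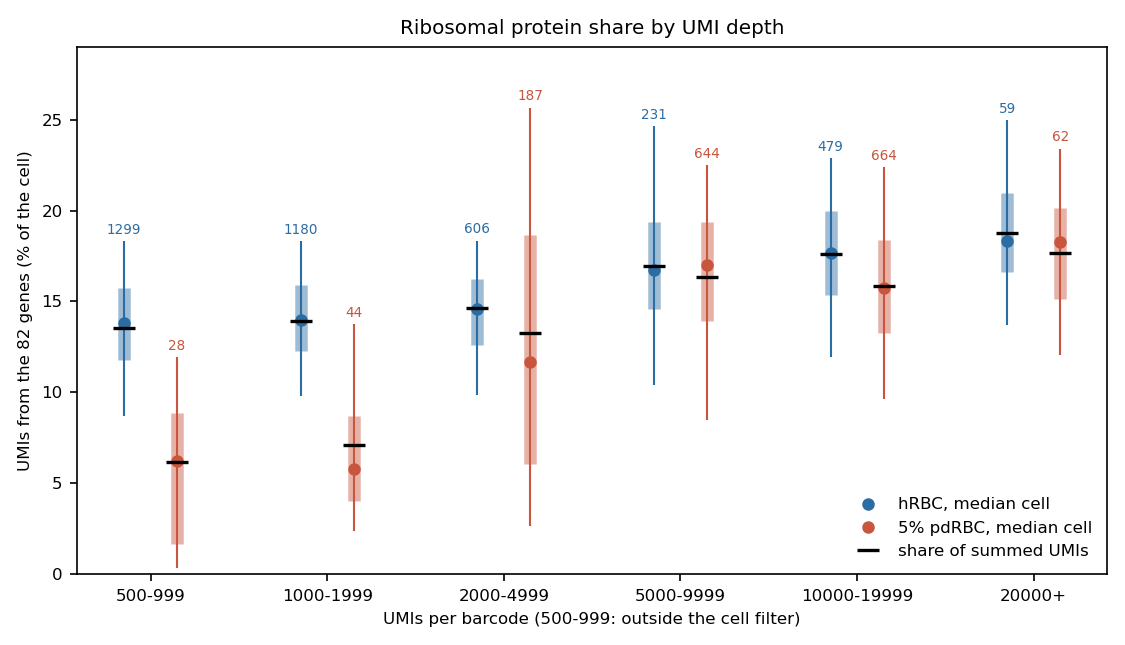
Percent of a cell's UMIs from the 82 genes by class of UMI depth in each library. Points are median cells, thick bars the middle 50% of cells, thin lines the 5th to 95th percentile, black ticks the share of summed UMIs, and numbers above are cells. Shares climb from 13.95% to 18.8% in hRBC, and the shallow cells of 5% pdRBC lie at 7.11%.

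Most members took part in this. Deep against shallow, 56 of 82 members were higher by 1.2-fold in hRBC, where 5.43% of measured genes were, and 75 in 5% pdRBC, where 5.39% were. RPL4 alone was lower, in hRBC, where 16.7% of measured genes were, and 0 members were lower in 5% pdRBC, where 13.4% were. The members' median log2 difference was 0.32 in hRBC and 1.15 in 5% pdRBC, beside -0.10 and -0.45 over all measured genes.

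RPL28, a 60S protein, had the largest mean difference over both libraries, at 2786 CPM in shallow and 3984 CPM in deep cells of hRBC, and at 1172 and 3356 CPM in 5% pdRBC. RPS12 had 4822 and 6981 CPM in hRBC and 2271 and 6066 CPM in 5% pdRBC, RPS15A 1872 and 2586 CPM in hRBC and 762 and 2179 CPM in 5% pdRBC, and RPL30 1836 and 2518 CPM in hRBC and 762 and 2135 CPM in 5% pdRBC. These 4 were called higher in both libraries. RPL41 and RPS29 also ranked among the 6 highest, but their shallow levels in 5% pdRBC rested on 12 and 5 UMIs, and in hRBC RPS29 had 495 and 528 CPM, a difference within counting error.

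RPL4, a 60S protein with a long loop in the peptide exit tunnel, went the other way in hRBC. It had 1482 CPM in the cells of 1000 to under 2000 UMIs, 1452 CPM at 2000 to under 5000, 1109 CPM at 5000 to under 10000, 1037 CPM at 10000 to under 20000 and 1020 CPM at 20000 or more. Deep cells were lower than shallow cells by 0.52 on the log2 scale. In 5% pdRBC it had 1026 CPM in shallow and 1055 CPM in deep cells, where the members' median difference was 1.15 on the log2 scale. RPL5, which forms a particle with RPL11 and 5S rRNA, had 1167 and 1066 CPM in hRBC and 645 and 1180 CPM in 5% pdRBC. The paralogs RPL39L, RPL26L1 and RPL7L1 and the gene RPS10 completed the 6 lowest, with intervals that held 1 in both libraries and 1 to 3 UMIs each in the shallow cells of 5% pdRBC.

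Cells were grouped into clusters without any ribosomal protein gene, so the members did not define them, and clusters are called by number and leading genes. Over the 12 groups of a cluster and a library with at least 50 cells, the members' share ran from 12.7% to 19.1%, a range of 6.37 percentage points. The range depended on the clustering, at 15.6 points with Leiden resolution 1.0 and 14.6 points with ribosomal protein genes among the clustering genes. Cluster 5, led by DACH1, ACE, LIMCH1 and PIEZO2, had 18.5% in hRBC and 18.04% in 5% pdRBC, above the other cells of each library at 16.2% and 14.97%. Cluster 0, led by the mitosis genes SKA1, CKAP2L, NCAPH, AURKB and CDK1, with 4 of the 11 cycling markers among its leading 10 genes, had 17.3% and 16.3%. Cluster 3, led by MGP, PMCH and FABP4, had 16.4% and 16.3%.

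Cluster 6, led by HIF1A-AS3, TNFRSF6B and RGS4, had 16.4% in hRBC and 13.7% in 5% pdRBC, the widest gap downward among the 5 clusters with at least 50 cells in both libraries. Cluster 2, led by WWTR1-AS1 and ANK2, had 15.6% and 19.1%, the widest gap upward, with the difference in depth given above. In its cells of 5000 or more UMIs the direction turned, with 21.3% in 31 cells of hRBC and 19.4% in 52 cells of 5% pdRBC. Cluster 8, led by the inflammatory genes CCL20, SELE, CXCL1 and CCL2, had 12.7% in 83 hRBC cells with a median of 1507 UMIs, the lowest of the 12 values, and 15.6% in only 15 cells of 5% pdRBC. Cluster 9, with the immediate early genes EGR1 and FOSB and with ARC and GEM among its leading 10, had 13.8% in 170 cells of 5% pdRBC and 14.7% in 44 cells of hRBC. In cells of 5000 or more UMIs of 5% pdRBC the same clusters stood at the ends, with cluster 6 at 13.8%, cluster 9 at 13.9%, cluster 5 at 18.2% and cluster 2 at 19.4%.

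**Figure D4:**
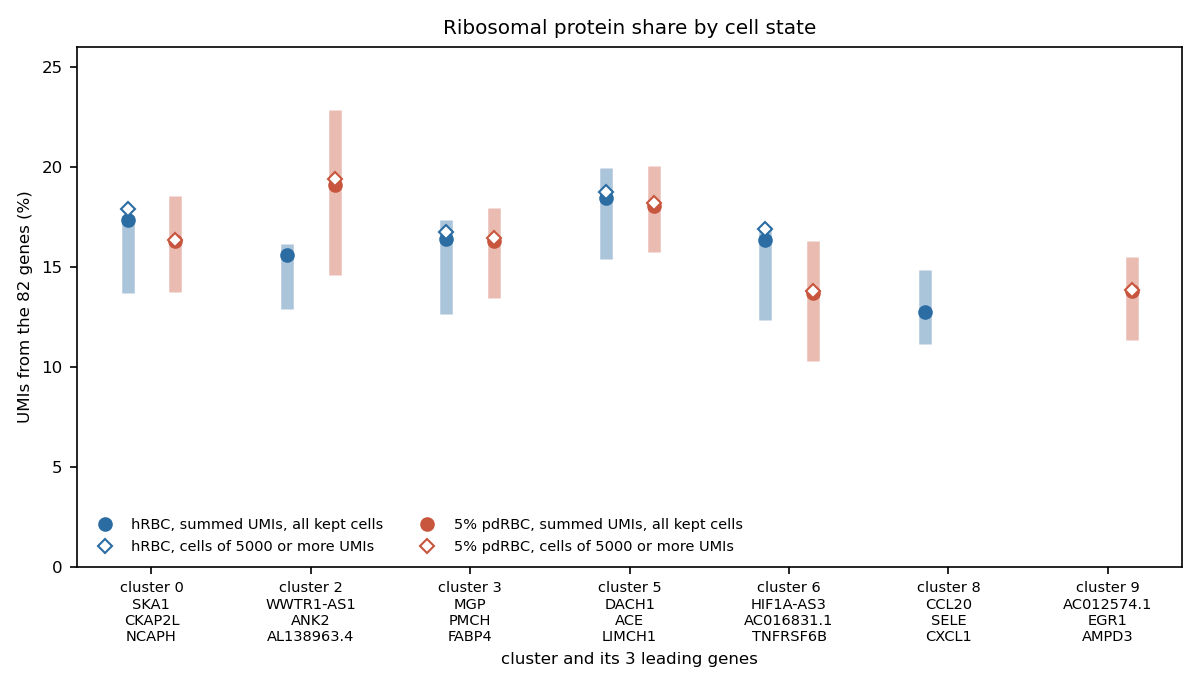
Percent of UMIs from the 82 genes in each cluster and library with at least 50 cells, for summed UMIs of all kept cells (filled points), for cells of 5000 or more UMIs (open diamonds), with bars for the middle 50% of cells. Cluster 8 in hRBC lies lowest at 12.7% and cluster 2 in 5% pdRBC highest at 19.1%.

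Against the other cells of the same library, 64 members were lower by 1.2-fold in cluster 8 of hRBC, where 4.67% of measured genes were, and 0 were higher, where 7.34% were. Depth was not matched: cluster 8 had a median of 1507 UMIs and a share of 12.7%. All hRBC cells of 1000 to under 2000 UMIs had 13.95%, and the hRBC cells outside cluster 8 had 16.9%. The part of depth in these calls was not tested. In cluster 9 of 5% pdRBC 30 were lower, where 24.5% of measured genes were, and in cluster 6 of 5% pdRBC 49 were lower, where 16.2% were. In cluster 6 of hRBC 4 were lower, where 13.2% were. In cluster 2, 7 were lower in hRBC, where 5.73% were, and 38 higher in 5% pdRBC, where 3.33% were. In cluster 5, 12 members were higher in hRBC, where 12.6% of measured genes were, and 42 in 5% pdRBC, where 18.5% were. In cluster 0, 6 were higher in hRBC, where 16.8% were, and 7 in 5% pdRBC, where 16.3% were. The median log2 differences of the members were -0.43 in cluster 8 of hRBC, -0.32 in cluster 6 and -0.24 in cluster 9 of 5% pdRBC, and 0.18 and 0.27 in cluster 5 of hRBC and 5% pdRBC.

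Over the 12 groups the median standard deviation of log2 CPM was 0.22, and 0.12 after the median of all members in each group was taken off. The values before that step ran from 0.16 for RPL8 to 1.199 for RPL39L. Among members with at least 2000 UMIs, RPL22L1, RPS29, RPL10A, RPL37A, RPS27 and RPS20 varied most. RPL10A ran from 716 CPM in cluster 8 of hRBC to 1386 CPM in cluster 2 of 5% pdRBC, and lay at 1345 CPM in cluster 5 and 746 CPM in cluster 6 of 5% pdRBC. RPS20 ran from 219 CPM in cluster 8 to 439 CPM in cluster 0 of hRBC. RPL37A had 1553 CPM in cluster 5 of hRBC and 831 CPM in cluster 6 of 5% pdRBC, and RPS27 1082 CPM and 582 CPM in cluster 5 of hRBC and cluster 9 of 5% pdRBC, so that for these and for RPS29 the library difference was part of the spread.

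RPL39L, the paralog of RPL39 best known from the testis, was concentrated in the cycling cluster. In cluster 0 it had 101 CPM (89.0 to 114) in hRBC and 121 CPM (105 to 139) in 5% pdRBC. In the other cells it had 15.7 and 16.7 CPM, so it was 6.45-fold higher in cluster 0 of hRBC (5.29 to 7.89) and 7.27-fold higher in cluster 0 of 5% pdRBC (5.999 to 8.79). Cluster 0 gave 251 of the 421 UMIs of RPL39L in hRBC and 203 of the 444 in 5% pdRBC. In clusters 3, 5, 6 and 9 its level lay between 13.4 and 18.6 CPM, in cluster 2 it was 22.4 and 17.2 CPM, and in cluster 8 a single UMI was counted. Clusters other than 0 could not be ranked at this depth, while the gap to cluster 0 was outside counting error in both libraries.

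Its standard counterpart RPL39 showed no such step, with 832 CPM in cluster 0 of hRBC and 637 CPM in cluster 0 of 5% pdRBC beside 940 and 688 CPM in cluster 5. RPL22L1, the paralog of the RNA-binding protein RPL22, was also highest in cluster 0, at 142 CPM in hRBC and 162 CPM in 5% pdRBC. That was 1.83-fold (1.61 to 2.08) and 1.73-fold (1.51 to 1.97) over the other cells. RPL22 itself had 880 and 858 CPM in cluster 0 and up to 1113 CPM in cluster 2 of 5% pdRBC.

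RPL7L1, a nucleolar homolog of RPL7, was 1.41-fold higher in cluster 0 of hRBC (1.2004 to 1.65), and 1.196-fold in 5% pdRBC with an interval that held 1 (0.981 to 1.44). RPL26L1 was 1.29-fold (1.09 to 1.52) and 1.34-fold (1.08 to 1.64) higher. RPS27L, the paralog of RPS27, was nearly level at 1.07-fold and 1.10-fold, with 762 and 682 CPM in cluster 0. Its level was nearer to that of RPS27, at 721 against 945 CPM over all cells of hRBC and 629 against 660 CPM in 5% pdRBC, while the other 4 paralogs had from 31.6 to 89.4 CPM in hRBC beside counterparts of 832 CPM or more. RPL7, RPL10, RPL26 and RPL3 had 1093, 5143, 2294 and 2244 CPM in hRBC, and RPL3L and RPL10L, the muscle and testis copies of RPL3 and RPL10, were at or near 0.

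**Figure D5:**
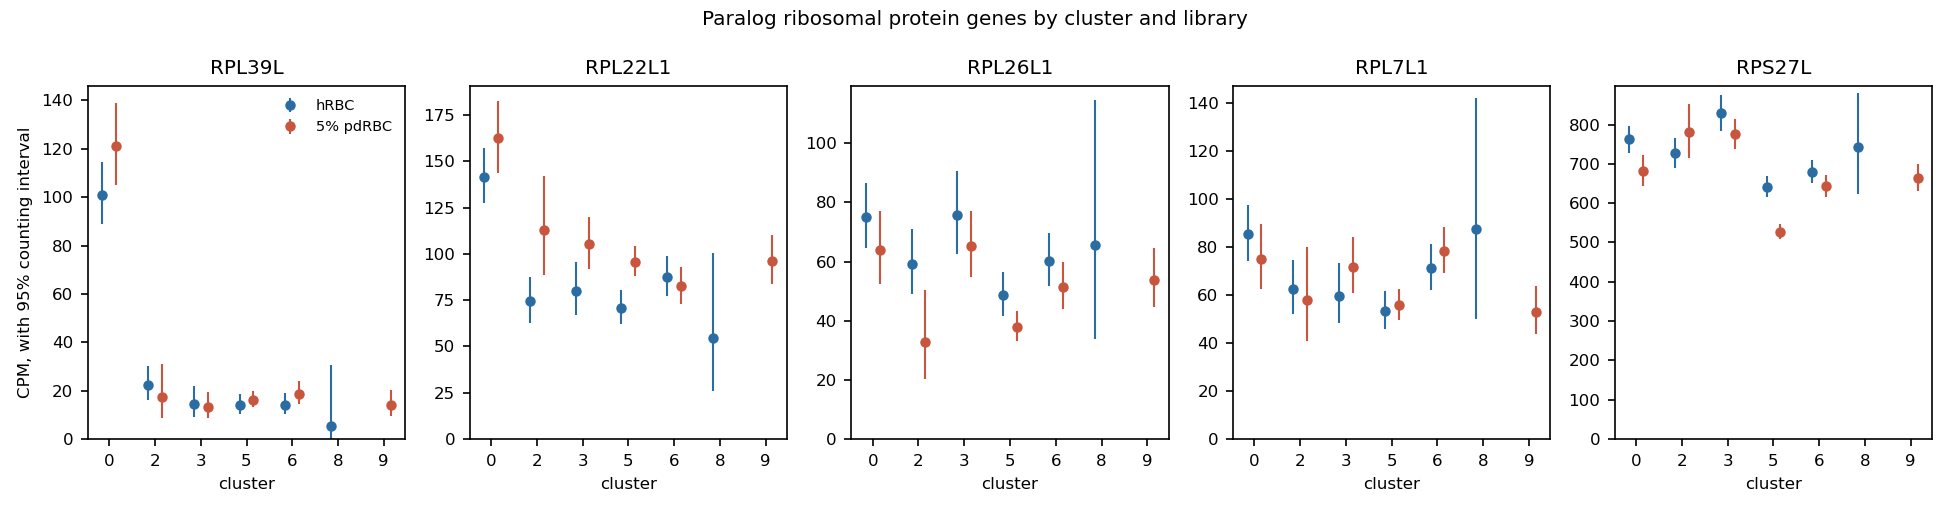
Level in CPM of the 5 paralog genes in each cluster and library with at least 50 cells, with 95% counting intervals, each panel on its own axis from 0. RPL39L stands at 101 and 121 CPM in cluster 0 and at 22.4 CPM or less elsewhere, and RPL22L1 is highest in cluster 0 too.

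Calls between the libraries among other genes of the translation machinery stand beside 7.28% of all measured genes higher and 5.06% lower. The lists are short, so their counts are not read as a result about them. FAU had 960 CPM in hRBC and 839 CPM in 5% pdRBC. Of 28 elongation factors and other TOP mRNAs 0 were higher and 2 lower, SNHG6 at 117 and 91.1 CPM and SNHG5 at 204 and 167 CPM, with a list median log2 fold of 0.00. EEF1A1, which delivers aminoacyl-tRNA and whose start window is printed above, had 5304 CPM in hRBC and 6279 CPM in 5% pdRBC, and TPT1 had 3761 and 4175 CPM. None of 20 initiation factors was called, with a median of -0.09. EIF5A had 322 and 276 CPM and EIF1 1344 and 1179 CPM.

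Of 36 ribosome biogenesis genes 3 were higher, where 7.28% of all measured genes were, and 2 lower, where 5.06% were, with a median of -0.05. RRP12, an export factor of pre-ribosomes, had 23.1 CPM in hRBC and 35.2 CPM in 5% pdRBC, and MYC, a driver of ribosome synthesis, 40.4 and 59.4 CPM. Of 17 genes of the mTOR, LARP1 and S6 kinase route 1 was higher, MTOR itself at 27.1 and 33.9 CPM, and LARP1 had 141 and 157 CPM. Of 13 genes of ribosome quality control 2 were higher and 0 lower, GCN1 among them at 24.0 and 29.1 CPM.

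The ribosomes of mitochondria are built from separate nuclear genes. Of 77 measured mitochondrial ribosomal protein genes 0 were higher, where 7.28% of all measured genes were, and 8 lower, where 5.06% were, with a median log2 fold of -0.09. MRPS33 had 52.2 CPM in hRBC and 41.2 CPM in 5% pdRBC, and MRPL27 62.8 and 49.6 CPM. Of the 13 genes of the mitochondrial genome 3 were lower, MT-ND3 at 583 and 389 CPM, MT-ND6 at 244 and 184 CPM and MT-ATP8 at 620 and 484 CPM. In the comparison of deep with shallow cells of hRBC, 6 of 74 mitochondrial ribosomal protein genes were higher and 8 lower, with a median of 0.04, where the cytosolic set had 0.32. In 5% pdRBC 6 of 76 were higher and 0 lower, with a median of 0.38, where the cytosolic set had 1.15.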

How the data were processed

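Endothelial cells perfused with healthy red blood cells or with a suspension holding 5% dehydrated cells were measured by 5′ single-cell RNA sequencing, 1 library each. The authors deposited raw UMI counts per gene and barcode in a sparse matrix with lists of features and barcodes. Cell Ranger 7.0.0 and GRCh38 are named in the submitters' processing notes. Annotation release, intron counting and strand use were not given in the sources used here.

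Barcodes with at least 1000 UMIs, 500 genes and at most 20% mitochondrial UMIs were kept (Scanpy 1.11.5, SciPy 1.17.1, Python 3.11.15). Doublets were scored with Scrublet, which marked 1 and 5 kept cells, under 0.5% of each library and so no working filter. None was removed, and doublets remain a limit for the deepest cells. Counts were summed per library, depth class or cluster and given as CPM. A fold is the ratio of CPM with 0.5 UMIs added, with an exact Clopper-Pearson 95% interval of the UMI split, and a call needs 1.2-fold with an interval that leaves out 1. PCR and cell capture add error that these intervals do not hold. Leiden clusters (resolution 0.5, 2000 variable genes, 30 components, 15 neighbours, python-igraph 0.11.9) were made without any ribosomal protein gene. The fold and its call were checked on simulated counts. Positions and lengths came from GENCODE 29, in which 34616 of 36601 gene identifiers were found. Figures were drawn with matplotlib 3.10.9. No per-sample column was left unused.

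Genes were named by rank of library fold (8 at each end), depth difference (6 at each end), spread over clusters (6) and level (5 at each end), with all paralogs and their counterparts, the stalk genes, RPS6, RPL5, RPL11, RPSA, RPS27A and the genes next to the UMI minimum, plus up to 4 genes of each other list. The members and the gene lists were chosen with earlier results of these data known. A few genes of the lists are counted in the totals but not reported here by name. The alternatives tried were another cell filter, depth limits, thinning, depth matching, equal cell weights, other scalings, other gene minimums and other clusterings.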

Additional observations from a re-analysis of the deposited data

How the results depend on the processing

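The library difference in the members' share of UMIs, log2 -0.07, was -0.050 with all deposited barcodes, -0.10 with the stricter cell filter (2000 UMIs, 1000 genes, 10% mitochondrial UMIs), -0.13 in cells of 5000 or more UMIs, -0.034 with each cell thinned to 2000 UMIs, -0.11 with libraries matched on depth, -0.083 over genes neither mitochondrial nor ribosomal and -0.085 when centred on the median of all measured genes. It reversed to 0.033 with every cell weighted equally. Thinning left out 1180 hRBC cells and 44 of 5% pdRBC. The count of lower members, 19, ran from 15 to 24 under the other settings, where 4.41% to 7.12% of measured genes were lower. It was 12 with equal weights, where 11.8% were lower. With equal weights 1 member was higher, where 12.9% of measured genes were. Under all other settings run 0 members were higher, where 6.26% to 13.9% of measured genes were. Deep against shallow cells of hRBC, 0.35, gave 0.34 with equal weights, 0.34 over UMIs that are not mitochondrial, 0.32 without clusters of under 100 cells (a setting chosen after seeing the data) and 0.30 for 1000 to under 5000 against 5000 or more UMIs. In 5% pdRBC, 1.18, the last 3 gave 1.13, 0.94 and 0.35, and a limit of 10% mitochondrial UMIs gave 1.11, so this value rests on the 44 shallow cells. The range over cell states, 6.37 percentage points, was 15.6 at Leiden resolution 1.0 (from 4.44% to 19.99%), 14.6 with ribosomal protein genes in the clustering, 5.53 with equal weights and 5.61 in cells of 5000 or more UMIs. Without the clusters of under 100 cells the share difference was -0.07 and the counts were 19 and 0. No paired analysis was possible because each condition has 1 library. With 1 library per condition, depth, library preparation and treatment cannot be told apart.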

Other observations

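Among the groups of under 50 cells, cluster 4 with 22 cells of 5% pdRBC had 17.95% of UMIs from the members, within the range of the larger groups, as did the groups of clusters 8 and 9 given above, and 4 other clusters lay outside it. Cluster 10, led by HBB, CSF2 and CRYAB, had 24.6% of UMIs from the members in 14 hRBC cells and 20.9% in 18 cells of 5% pdRBC. Its nuclear retained RNA stood at 0.0113% and 0.00582% of UMIs, against 0.990% and 1.01% over all kept cells. HBB was at 0 in all kept cells of 5% pdRBC. All 10 erythroid genes together gave 15 UMIs in the kept cells of hRBC, so the lead of HBB rests on few UMIs of hRBC. Cluster 7, led by GALNT13, PPP1R26-AS1 and CFAP58, had 4.47% in 35 hRBC cells and 4.02% in 48 cells of 5% pdRBC, with 5.35% and 9.33% mitochondrial UMIs and 3.70% and 4.71% nuclear retained RNA. Cluster 1 held 14 cells of 5% pdRBC at 5.27% and cluster 11 held 15 cells of hRBC at 7.82%.

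Cell by cell, the share of UMIs from the members had a Spearman correlation with UMI depth of 0.38 over 2555 cells of hRBC and 0.13 over 1601 cells of 5% pdRBC, and with the mitochondrial share of -0.25 and 0.09. The cells of a library share its preparation and are no replicates, so these are descriptions.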
